A study of Mus musculus with 6 samples.

Results

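The thin filament genes described here are 10 genes that encode the actins, troponins and tropomyosins of the heart and their fetal, slow or smooth muscle counterparts: Actc1, Acta1, Acta2, Tnnt2, Tnnt1, Tnni3, Tnni1, Tnnc1, Tpm1 and Tpm2. They were chosen by name, as every probe set whose platform annotation carried one of these symbols. Each gene had 1 probe set, so 10 of the 35556 probe sets on the array were included. RNA was from hearts of 3-month-old male mice that had received no treatment. The mutants, VAChT KDHOM, were homozygous for a knockdown of the vesicular acetylcholine transporter (VAChT), which loads acetylcholine into synaptic vesicles, and the knockdown was systemic rather than confined to the heart. Wild-type (WT) mice were the controls. The strain label of both groups was C57BL/6, and the methods give a mixed C57BL6/j background after limited backcrossing. Each group was measured on 3 Mouse Gene 1.0 ST arrays, each with a pool of 2 RNA samples. The sample labels name the heart and the series title names ventricles.

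The thin filament is the actin strand that myosin pulls on. Tropomyosin lies along actin and covers the myosin binding sites, and the troponin complex moves it away when troponin C binds calcium; troponin I holds the filament off and troponin T anchors the complex to tropomyosin. The adult mouse ventricle uses cardiac α-actin (Actc1), cardiac troponin T (Tnnt2), cardiac troponin I (Tnni3), the cardiac and slow muscle troponin C (Tnnc1) and α-tropomyosin (Tpm1). The fetal heart also uses slow skeletal troponin I (Tnni1), smooth muscle α-actin (Acta2) and more skeletal α-actin (Acta1). A return of Acta1 is a classical sign of the fetal gene program in the stressed rodent heart, and serum response factor, which binds the CArG box, drives the muscle actin genes.

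Of the 12 promoter windows that RefSeq start sites gave for these 10 genes, 2 held a CArG box (CC, then 6 bases that are A or T, then GG; both strands read alike) in the 250 bases before the annotated start: those of Actc1 and Acta1. Such a box was in 1.47% of all 32851 windows of that length. The windows of the 3 actin genes are shown because the actin ratios are the results that moved most; capitals mark the CArG box, the sequences run 5′ to 3′ along the gene, and they are those of RefSeq on GRCm38.p6.
Actc1, chr2:114052876-114053125, minus strand: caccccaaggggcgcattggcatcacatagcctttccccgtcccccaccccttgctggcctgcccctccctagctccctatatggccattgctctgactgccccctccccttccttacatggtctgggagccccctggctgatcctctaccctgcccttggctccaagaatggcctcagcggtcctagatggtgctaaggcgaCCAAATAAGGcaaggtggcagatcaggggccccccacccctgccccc
Acta1, chr8:123894776-123895025, minus strand: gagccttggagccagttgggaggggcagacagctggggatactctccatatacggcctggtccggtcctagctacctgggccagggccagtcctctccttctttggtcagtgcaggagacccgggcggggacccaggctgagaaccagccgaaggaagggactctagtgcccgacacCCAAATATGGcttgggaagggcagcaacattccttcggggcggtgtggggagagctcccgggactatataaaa
Acta2, chr19:34255374-34255623, minus strand: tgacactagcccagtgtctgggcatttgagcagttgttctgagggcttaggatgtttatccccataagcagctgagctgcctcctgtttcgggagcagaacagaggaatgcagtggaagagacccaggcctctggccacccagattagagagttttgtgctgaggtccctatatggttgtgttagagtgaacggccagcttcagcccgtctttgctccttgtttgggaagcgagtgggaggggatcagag
In Actc1 the box lay 47 to 38 bases before the start, and in Acta1 it lay 73 to 64 bases before it. No exact CArG box was in the Acta2 window, which says only that these letters were not in it. TATAAA, read on both strands, was in the windows of Tnnt1 and Acta1 and in 12.4% of all windows.

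Several arrays stood apart, and these values precede the results because the thin filament genes rest on them. The array labelled VAChT KDHOM 1 had a lower top of the scale than the other 5: its highest probe set read 13.70 (log2), against 14.79 and 14.90 on the other VAChT KDHOM arrays and 14.71 to 14.81 on the WT arrays, and it had 0 probe sets above 14, against 61 to 70 elsewhere. All 65 probe sets with a median above 14 on the other 5 arrays were lower on VAChT KDHOM 1, with a median deviation of -1.002 on the log2 scale (range -1.11 to -0.68). Deviations there had a median of -0.47 over the 39 probe sets between 13.5 and 14, -0.31 over the 120 in the bin below and -0.05 over the 1875 between 10 and 11. Actc1, Tnnt2, Tnni3, Tnnc1 and Tpm1 lie in that upper range. On WT 1 the median deviation was 0.148 between signals of 5 and 7 and -0.118 between 9 and 10. On VAChT KDHOM 3 it was -0.110 and 0.104 in these bins. Between 11 and 12, where Acta1 and Acta2 lie, it was -0.058 on WT 1 and 0.086 on VAChT KDHOM 3. A further quantile normalization, which gives every array the same distribution of values, was therefore set beside the deposited values for the 10 genes and their ratios. The genes of the partner, transcription factor and marker lists are given on the deposited values only.

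**Figure D1:**
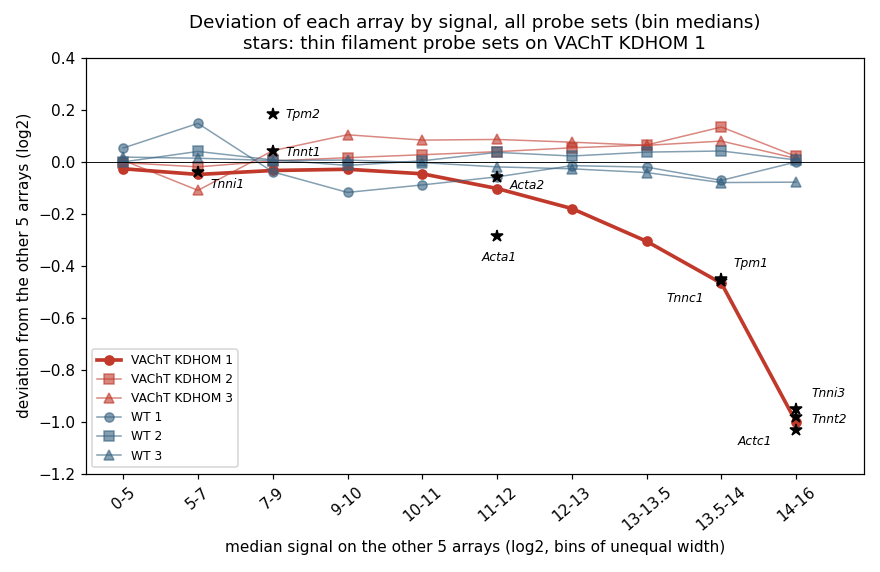
Deviation of each array from the median of the other 5 (vertical axis, log2) by the signal on those 5 arrays (horizontal axis, log2 bins), as the median over all probe sets in a bin; stars mark the 10 thin filament probe sets on VAChT KDHOM 1. Above a signal of 12 the line of VAChT KDHOM 1 falls away to a median of -1.002, and Actc1, Tnnt2, Tnni3, Tnnc1 and Tpm1 lie on or close to it.

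The genotype labels were checked at a pair of genes. Slc18a3, which encodes VAChT, read 7.24, 6.77 and 7.58 on the VAChT KDHOM arrays and 7.31, 7.42 and 7.11 on the WT arrays, a log2 difference of -0.08 with a standard error of 0.20, and the position of its probes relative to the altered allele is not known here. Ogdhl, an oxoglutarate dehydrogenase-like protein, read 7.06, 10.17 and 7.09 on the arrays labelled VAChT KDHOM 1, 2 and 3, against 9.60, 7.21 and 10.33 on those labelled WT 1, 2 and 3. At this gene both arrays numbered 2 resembled the other group, so which genotype they hold is in doubt. The results of the 10 genes and their ratios are given also without them, and those of the gene lists are not. Among tissue markers, all 10 cardiomyocyte markers read above the 95th percentile of the olfactory receptor probe sets (6.50), which serves here as the level of background, and 4 of 10 fast skeletal muscle markers did not.

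None of the 10 thin filament genes passed the test of a difference between the labelled groups. With limma on the deposited values, 0 of 10 passed an adjusted p of 0.05, as did 1 of all probe sets (0.00281%), and 0 of 10 passed an unadjusted p of 0.05, against 11.7% of all probe sets. At that p and 1.3-fold, the thresholds in the study's methods, 0 of 10 passed with limma (3.79% of all). The smallest unadjusted p was 0.0859, that of Acta2. The median log2 difference over the 10 genes, VAChT KDHOM minus WT, was -0.11 on the deposited values and 0.0016 after quantile normalization, beside -0.03 over the 19938 genes with a probe set of their own on the deposited values. The groups overlapped at all 10 genes on the deposited values (19.2% of all probe sets did not overlap). After quantile normalization they did not overlap at 1 of the 10, Acta2, which was higher on every VAChT KDHOM array, and 6.61% of all probe sets did so in that direction. That separation rests on the labels of the arrays numbered 2: with those labels exchanged, the Acta2 groups would overlap.

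**Figure D2:**
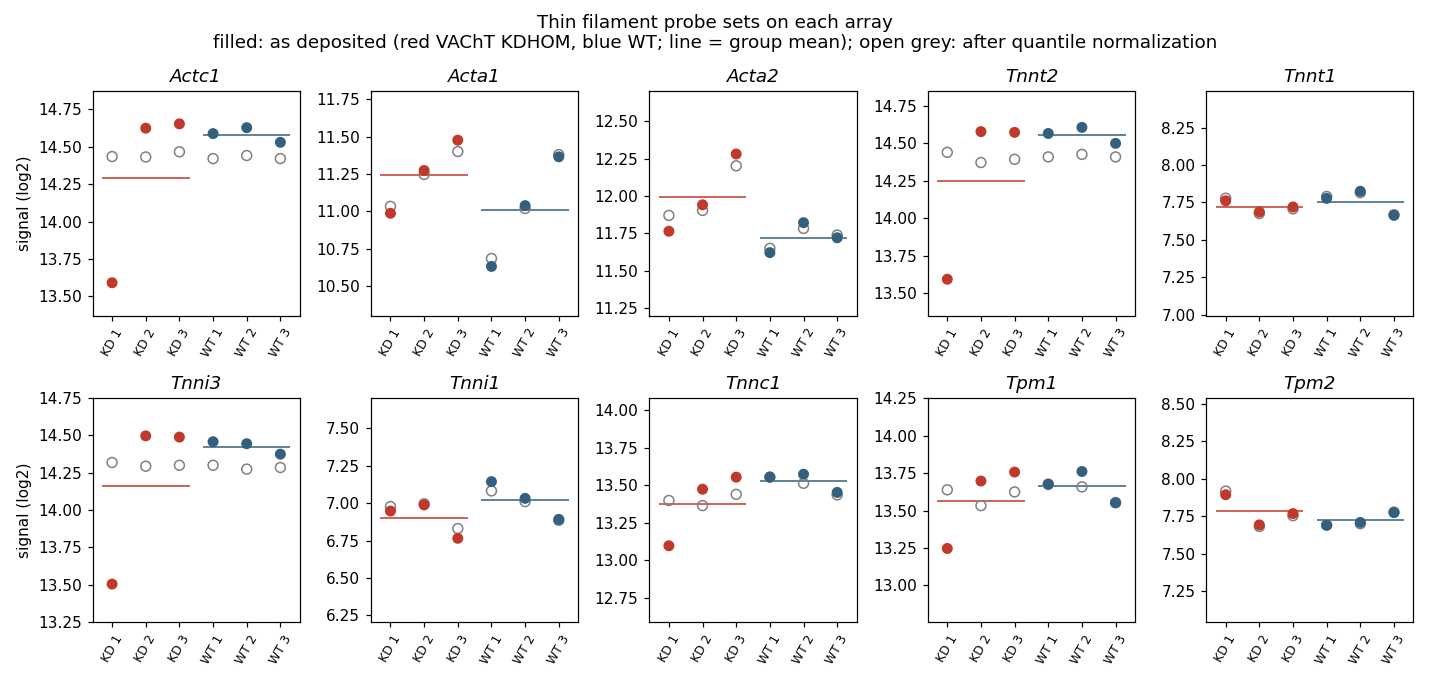
Signal (log2, vertical axes of equal span) of the 10 thin filament probe sets on each array, with VAChT KDHOM in red and WT in blue; filled points are the deposited values, lines their group means and open points the quantile-normalized values. Actc1, Tnnt2 and Tnni3 read about 1 log2 unit lower on VAChT KDHOM 1 than elsewhere until the arrays were given the same distribution, and Acta1 varied across both groups.

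Cardiac α-actin, the main actin of the adult myocardium, read within 14.53 to 14.65 on 5 of the 6 arrays. Actc1 read 13.59, 14.62 and 14.65 on the VAChT KDHOM arrays 1 to 3, against 14.59, 14.63 and 14.53 on the WT arrays. Only VAChT KDHOM 1 was low, and there Actc1 was still the probe set of rank 21 on its array, against ranks 22 and 9 on the other VAChT KDHOM arrays and 25, 18 and 25 on the WT arrays. The log2 difference was -0.29 (standard error 0.27, 95% interval -0.92 to 0.33, limma adjusted p = 0.642). It was 0.016 after quantile normalization (interval -0.12 to 0.16), 0.057 without VAChT KDHOM 1 and -0.44 without both arrays numbered 2.

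Skeletal α-actin differed more among the arrays of either group than between the group means. Acta1 read 10.99, 11.27 and 11.48 on the VAChT KDHOM arrays 1 to 3, against 10.63, 11.04 and 11.37 on the WT arrays 1 to 3, and the groups overlapped. In order of level the arrays ran WT 1, VAChT KDHOM 1, WT 2, VAChT KDHOM 2, WT 3 and VAChT KDHOM 3. Of the 1246 other probe sets with a mean signal within 0.5 of that of Acta1, 1.28% had a larger SD over the 6 arrays than its 0.31. The log2 difference was 0.23 (standard error 0.20, 95% interval -0.24 to 0.70, limma adjusted p = 0.621), it was 0.20 after quantile normalization and 0.23 without both arrays numbered 2, and it was 0.04 without WT 1. Nppb, the B-type natriuretic peptide and another gene of the fetal program, read 11.05, 11.49 and 11.86 on the VAChT KDHOM arrays and 11.10, 11.05 and 11.81 on the WT arrays. Its 3 highest arrays were those of Acta1. Among the other listed genes of the fetal and stress program this held for Xirp1, but not for Nppa, Ankrd1, Fhl1, Xirp2 or Myh7. Myh7, the fetal myosin heavy chain, was highest on WT 1 (10.53), where Acta1 was lowest, and lowest on VAChT KDHOM 3 (9.39), where Acta1 was highest.

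Smooth muscle α-actin, which marks vascular smooth muscle and myofibroblasts in the adult heart, came nearest to a difference. Acta2 read 11.77, 11.94 and 12.28 on the VAChT KDHOM arrays, against 11.62, 11.82 and 11.72 on the WT arrays. The groups overlapped only in that VAChT KDHOM 1 lay below WT 2. The means were 11.996 ± 0.26 in VAChT KDHOM and 11.72 ± 0.10 in WT (SD, n = 3 arrays each), a log2 difference of 0.27 or 1.21-fold (standard error 0.14, 95% interval -0.05 to 0.60, limma adjusted p = 0.460 and unadjusted p = 0.0859). After quantile normalization Acta2 read 11.87, 11.90 and 12.20 on the VAChT KDHOM arrays, against 11.65, 11.78 and 11.74 on the WT arrays. That difference was again 0.27 (interval 0.02 to 0.52), with an unadjusted p of 0.0384 and an adjusted p of 0.478 from limma, and 4.33% of all probe sets were higher at an unadjusted p of 0.05 on that scale. It was 0.35 without both arrays numbered 2. Without VAChT KDHOM 1 it was 0.39, with an unadjusted p of 0.0245 from limma, which made Acta2 the only gene of the 10 past both of the methods' thresholds in that setting (2.33% of all probe sets were, in that direction), and without VAChT KDHOM 3, the highest array, it was 0.13.

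Smooth muscle markers other than Acta2 lay on both sides of no difference. Of 8 such markers, 6 had a positive difference and 1 passed an unadjusted p of 0.05: Tagln, an actin-binding protein of smooth muscle, read 8.59, 8.51 and 8.56 on the VAChT KDHOM arrays, against 8.30, 8.48 and 8.21 on the WT arrays, for a log2 difference of 0.22 with a standard error of 0.09 (adjusted p = 0.422 in limma). Myh11, the smooth muscle myosin heavy chain, differed by 0.13 (standard error 0.08), while Actg2 and Lmod1 lay at -0.16 and -0.19. The labelled groups did not overlap at 2 of the 8, Tagln and Myh11. Over all probe sets 19.2% did not overlap, with both directions counted. Tagln and Myh11 were both higher in VAChT KDHOM, and the share in that direction alone is not given on the deposited values. With the labels of the arrays numbered 2 exchanged, the groups would overlap at Tagln and at Myh11. The log2 of the summed signal of the 8 was 11.66 to 11.74 on the VAChT KDHOM arrays and 11.55 to 11.67 on the WT arrays, and no marker of the 8 had a mean below background. The median over the list was 0.07, and 1.71% of all genes were higher at an unadjusted p of 0.05. Atrial markers were highest on VAChT KDHOM 3, the array with the highest Acta2: the log2 of their summed signal was 13.30 there, 12.85 and 12.88 on the other VAChT KDHOM arrays and 12.60 to 12.89 on the WT arrays. All 6 of the list had a positive difference, 0 passed an unadjusted p of 0.05 in limma, and 1, Bmp10, had a mean below background. Bmp10, a growth factor of atrial muscle chosen after its values were seen, read 7.43 on it against 5.19 and 5.53 on the other VAChT KDHOM arrays and 5.40 to 5.64 on the WT arrays. Fibroblast markers summed to 13.41 to 13.77 on the VAChT KDHOM arrays and 13.55 to 13.65 on the WT arrays; Postn, which activated fibroblasts secrete, differed by 0.24 (adjusted p = 0.449 in limma). In tissue RNA, more cells of a type and more RNA per cell cannot be told apart, and the part of these marker lists in the Acta2 result was not tested.

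Cardiac troponins T and I behaved as Actc1 did. Tnnt2, which holds troponin on tropomyosin, read 13.59, 14.58 and 14.57 on the VAChT KDHOM arrays 1 to 3, against 14.57, 14.61 and 14.50 on the WT arrays. Tnni3, the troponin I of the adult heart, read 13.51, 14.49 and 14.49 on the VAChT KDHOM arrays, against 14.46, 14.44 and 14.37 on the WT arrays. Both were low on VAChT KDHOM 1 alone. The log2 differences were -0.31 for Tnnt2 (standard error 0.25, 95% interval -0.90 to 0.28, limma adjusted p = 0.605) and -0.26 for Tnni3 (standard error 0.25, 95% interval -0.85 to 0.33, limma adjusted p = 0.658). After quantile normalization they were -0.013 for Tnnt2 (interval -0.16 to 0.13) and 0.018 for Tnni3 (interval -0.12 to 0.16), and without VAChT KDHOM 1 they were 0.018 and 0.067. Without both arrays numbered 2, which leaves VAChT KDHOM 1 as 1 of 2 mutant arrays, they were -0.45 and -0.42.

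Tnnc1 and Tpm1 lie lower on the scale, and their deviation on VAChT KDHOM 1 was smaller, at -0.46 and -0.45 from the median of the other arrays. Tnnc1, the calcium sensor, read 13.10, 13.47 and 13.55 on the VAChT KDHOM arrays, against 13.55, 13.57 and 13.45 on the WT arrays, a difference of -0.15 (standard error 0.13, 95% interval -0.45 to 0.15, limma adjusted p = 0.615). After quantile normalization the difference was still -0.10 (interval -0.26 to 0.06), and it was -0.01 without VAChT KDHOM 1 and -0.18 without both arrays numbered 2. Tnnc1 is on chromosome 14, as is Slc18a3, with 22 other protein-coding genes of the RefSeq table between them. Tpm1 read 13.25, 13.70 and 13.76 on the VAChT KDHOM arrays, against 13.68, 13.76 and 13.55 on the WT arrays, a difference of -0.10 (standard error 0.14, 95% interval -0.43 to 0.24), which was -0.03 after quantile normalization, 0.06 without VAChT KDHOM 1 and -0.11 without both arrays numbered 2. Tpm1 makes striated, smooth muscle and non-muscle tropomyosins by alternative splicing, and 1 probe set for the gene does not tell these apart.

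The isoforms Tnni1, Tnnt1 and Tpm2 gave weak signals, and none passed the test. Tnni1, the troponin I of the fetal heart and of slow skeletal muscle, read 6.95, 6.99 and 6.76 on the VAChT KDHOM arrays, against 7.14, 7.03 and 6.89 on the WT arrays, close to the background level of 6.50. Its difference was -0.12 (standard error 0.10, 95% interval -0.36 to 0.12, limma adjusted p = 0.609), -0.06 after quantile normalization and -0.16 without both arrays numbered 2. Tnnt1, the slow skeletal troponin T, was flat across the arrays, at 7.76, 7.69 and 7.72 in VAChT KDHOM and 7.78, 7.82 and 7.66 in WT. Of the 5584 other probe sets with a like mean signal, 91.7% had a larger SD over the 6 arrays. Its difference was -0.03 (95% interval -0.22 to 0.15), and 0.02 without both arrays numbered 2. Tpm2, β-tropomyosin, read 7.89, 7.69 and 7.77 in VAChT KDHOM and 7.69, 7.71 and 7.77 in WT, a difference of 0.06 (95% interval -0.14 to 0.26), which was 0.0057 without VAChT KDHOM 1 and 0.10 without both arrays numbered 2. A signal near background understates a fold change, so these intervals bound the differences in signal rather than in transcript.

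The isoform ratio, as the log2 of one probe set over the other on the same array, was compared for 5 pairs. A ratio of 2 probe sets also holds the affinities of their probes, so only its difference between groups was read, and 3 arrays against 3 cannot give a two-sided exact p below 0.10. On the deposited values all 5 ratios of the fetal, slow or smooth muscle isoform over the adult cardiac one had a higher mean in VAChT KDHOM, and in all 5 the highest of the 6 arrays was VAChT KDHOM 1, whose denominators lay in the low upper range described above. After quantile normalization the means of 3 ratios were higher and those of 2 were lower.

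Acta2/Actc1 was the ratio whose groups, as labelled, did not overlap on either scale. It was -1.83, -2.68 and -2.37 on the VAChT KDHOM arrays 1 to 3, against -2.97, -2.81 and -2.81 on the WT arrays. The difference was 0.57, or 1.48-fold (exact two-sided permutation p = 0.1, the smallest that can be reached, and 0.5 after Benjamini-Hochberg adjustment over the 5 ratios; higher on 3 of 3 arrays). After quantile normalization it was -2.56, -2.53 and -2.26 on the VAChT KDHOM arrays, against -2.77, -2.66 and -2.68 on the WT arrays, and the difference was 0.25, or 1.19-fold, with the same exact p of 0.1 and adjusted p of 0.5. If the labels of both arrays numbered 2 were exchanged, the groups would overlap on both scales. The deposited difference was 0.33 without VAChT KDHOM 1 and 0.79 without both arrays numbered 2, and the quantile-normalized one was 0.31 without the arrays numbered 2. As background, 6.26% of all other probe sets, set over Actc1 in the same way, were higher on every VAChT KDHOM array on the deposited values, and 5.57% were after quantile normalization. With Actc1 level after quantile normalization, that difference was close to the 0.27 of Acta2 alone.

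Acta1/Actc1, the ratio of fetal skeletal to cardiac actin, was -2.60, -3.35 and -3.18 on the VAChT KDHOM arrays, against -3.95, -3.59 and -3.16 on the WT arrays, and the groups overlapped at WT 3. Its difference of 0.53 (exact two-sided permutation p = 0.3, adjusted p = 0.75) became 0.18 after quantile normalization (exact p = 0.6), and it was 0.31 without VAChT KDHOM 1 and 0.67 without both arrays numbered 2. On the quantile scale the SD of the WT arrays, 0.35, was larger than this difference.

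The groups overlapped at each of the troponin and tropomyosin ratios on the 6 deposited arrays. Tnni1/Tnni3, which falls as the heart matures, was -6.56, -7.51 and -7.72 on the VAChT KDHOM arrays, against -7.31, -7.41 and -7.48 on the WT arrays, so the mutant arrays lay on both sides of all WT arrays. The difference of 0.14 (exact two-sided permutation p = 1) turned to -0.21 without VAChT KDHOM 1, where both remaining VAChT KDHOM arrays lay below every WT array (exact p = 0.1, the smallest that 2 arrays against 3 can give), and to -0.075 after quantile normalization (exact p = 0.4), and it was 0.26 without both arrays numbered 2. Tnnt1/Tnnt2 was -5.83, -6.89 and -6.85 on the VAChT KDHOM arrays, against -6.79, -6.78 and -6.84 on the WT arrays. The difference of 0.28 (exact p = 1) turned to -0.070 without VAChT KDHOM 1 and to -0.024 after quantile normalization (exact p = 0.7), and without both arrays numbered 2 it was 0.47. Tpm2/Tpm1 was -5.35, -6.00 and -5.99 on the VAChT KDHOM arrays, against -5.99, -6.05 and -5.78 on the WT arrays, a difference of 0.16 (exact p = 0.7) that was 0.09 after quantile normalization (exact p = 0.3), -0.058 without VAChT KDHOM 1 and 0.21 without both arrays numbered 2.

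**Figure D3:**
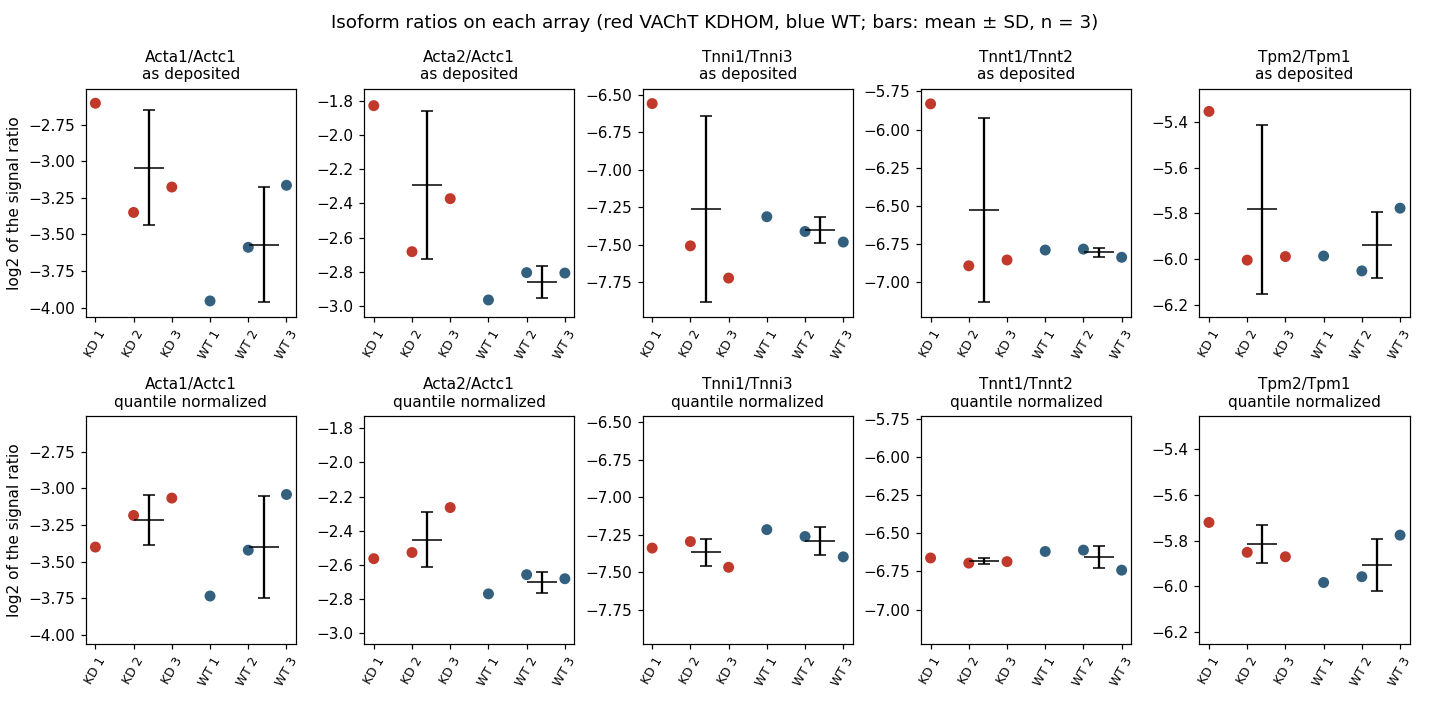
Log2 of the signal ratio of 5 isoform pairs (vertical axis) on each array, with VAChT KDHOM in red and WT in blue and bars for the mean ± SD (n = 3); the upper row holds the deposited values and the lower row the quantile-normalized ones, on the same axis for each pair. VAChT KDHOM 1 is the highest point in every panel of the upper row, and in the lower row only Acta2/Actc1 has labelled groups that do not overlap.

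**Figure D4:**
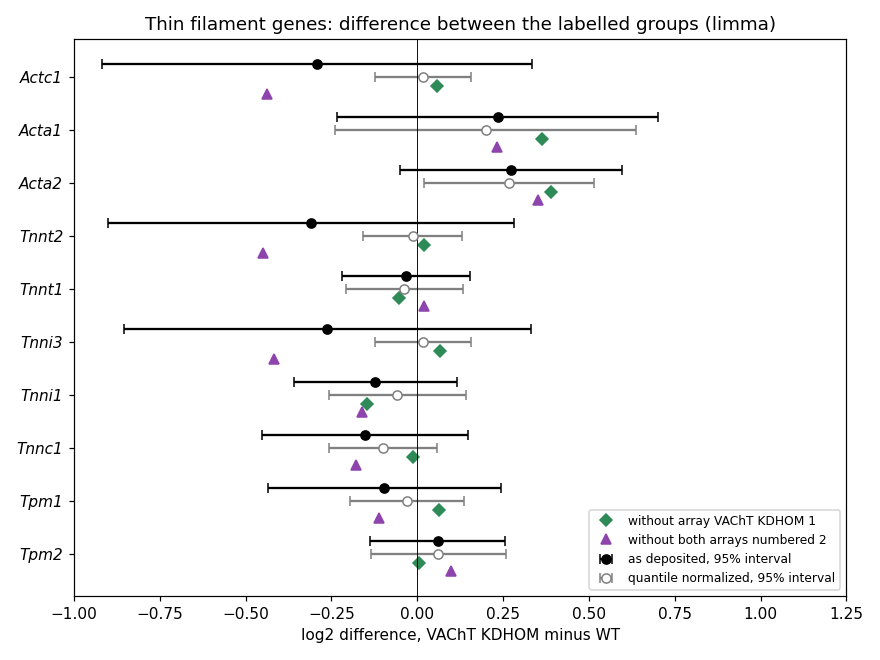
Log2 difference, VAChT KDHOM minus WT (horizontal axis), of the 10 thin filament genes in limma, with 95% intervals for the deposited values (black) and after quantile normalization (grey), and the values without VAChT KDHOM 1 (diamonds) and without both arrays numbered 2 (triangles). The wide black intervals of Actc1, Tnnt2 and Tnni3 narrow after quantile normalization, and the interval of Acta2 then runs from 0.02 to 0.52.

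None of the other listed genes of the thin filament passed an adjusted p of 0.05 in limma. Of 27 genes listed (other actins, troponins and tropomyosins, and proteins that cap, align or turn over the filament), 26 were measured, 0 were higher and 1 was lower at an unadjusted p of 0.05, and the median difference was -0.02. The lower one was Tnni2, the fast skeletal troponin I, which read 7.72, 7.61 and 7.54 on the VAChT KDHOM arrays, against 8.07, 7.89 and 7.73 on the WT arrays, for a log2 difference of -0.27 with a standard error of 0.11 (adjusted p = 0.410 in limma). Tnnt3, the fast skeletal troponin T, lay at -0.22 and Actg2, γ-actin of smooth muscle, at -0.16, both with weak signals. Capza1, which caps the barbed end of actin, lay at 0.24 (standard error 0.13, limma adjusted p = 0.470). Over all genes, 8.08% were lower and 1.71% higher at that p. Of 14 listed transcription factors of muscle genes, 12 were measured under those symbols, and 0 passed an unadjusted p of 0.05 in limma in either direction (median 0.04). Myocd, the serum response factor coactivator of cardiac and smooth muscle, read 10.38, 10.52 and 10.32 on the VAChT KDHOM arrays, against 10.07, 10.27 and 10.29 on the WT arrays, for a log2 difference of 0.20 with a standard error of 0.10 (adjusted p = 0.453 in limma). Tbx5, Hand2 and Mef2d lay at 0.13, 0.14 and 0.14.

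Among the marker lists, the 10 cardiomyocyte genes had a median of -0.06 with 0 past an unadjusted p of 0.05 in limma, and their summed log2 signal was 16.24 on VAChT KDHOM 1, 16.75 and 16.74 on the other VAChT KDHOM arrays and 16.68 to 16.69 on the WT arrays. Pln, the inhibitor of the calcium pump, and Myh6, the adult myosin heavy chain, were low on VAChT KDHOM 1 as the cardiac troponins were: Pln read 13.50, 14.51 and 14.48 in VAChT KDHOM and 14.44, 14.50 and 14.36 in WT. Of 7 genes of the fetal and stress program 1 was lower at that p and 0 were higher (median 0.05). This was Myh7, the fetal myosin heavy chain, which read 9.74, 10.09 and 9.39 on the VAChT KDHOM arrays, against 10.53, 10.11 and 10.06 on the WT arrays, for a log2 difference of -0.49 with a standard error of 0.20 (adjusted p = 0.414 in limma). Of 10 fast skeletal muscle genes 2 were lower, Actn3 and Tnni2, and 0 higher (median -0.16), where 8.08% of all genes were lower at that p. These are weak signals: 4 of the 10 had a mean below background. Their summed log2 signal was highest on WT 1, at 10.40. On that array probe sets with a signal between 5 and 7 had a median deviation of 0.148. Those between 7 and 9, where Tnni2 and Tnnt3 lie, had -0.038. The part of these deviations in the summed signal was not tested. The lists of 6 atrial (median 0.24), 6 pericyte (0.02), 7 fibroblast (-0.01) and 5 endothelial genes (0.05) had 0 members past an unadjusted p of 0.05 in limma.

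The genes that followed the thin filament genes most closely were found among 13176 genes above background, by Pearson correlation over the 6 arrays. This is a description, since 6 arrays allow many close matches among so many genes and all values of an array share its scale. For Actc1, Tnnt2 and Tnni3 the closest were bright genes. The nearest 3 of Actc1 were Atp5b (0.999) and Mb (0.999), the ATP synthase β subunit and myoglobin, and Baiap2l1 (0.999). Baiap2l1 was also the nearest of Tnni3 (0.999), and Myh6 was among the nearest 3 of Tnnt2 and Tnni3. Those of Tnnc1 were Atp5a1 (0.994), Acaa2 (0.993) and Atp5g2 (0.986), and those of Tpm1 were Hsd17b10 (0.996), Atp5c1 (0.993) and Atp5g2 (0.989). The correlation between Actc1 and Tnnt2 themselves was 0.999 on the deposited values and -0.14 after quantile normalization, and that between Actc1 and Tnni3 was 0.999 and 0.07. Acta1 was followed most closely by Mrps26 (0.999), Rbsn (0.999) and Evi5 (0.997), and Acta2 by Ftl1 (0.995), Ddx5 (0.995) and Zmat5 (0.993). Acta1 and Tnni1, both genes of the fetal program, ran in opposite directions over the arrays, with -0.89 on the deposited values and -0.90 after quantile normalization. Tnni1 is close to background and deviated by 0.196 on WT 1 and -0.223 on VAChT KDHOM 3. The median over all probe sets with a signal between 5 and 7 was 0.148 and -0.110 on these arrays. The part of this array-wide deviation in the correlation was not tested. For Tnni1 the nearest was Gm11564 (0.996), for Tnnt1 Fkbp5 (0.986) and for Tpm2 Tsacc (0.985).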

How the data were processed

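Heart RNA of male VAChT KDHOM and WT mice was measured on 6 Mouse Gene 1.0 ST arrays, 3 per group, grouped by the genotype in their titles. RMA in Partek Genomics Suite was what the authors used to reduce probe signals to 1 value per probe set, and the deposited values are log2; the genome build behind them is not given in the sources used here. Of 35556 probe sets 21789 carry 1 gene symbol in the platform annotation, 1621 several (left unnamed) and 12146 none. No probe sequences were used, so cross-hybridisation among the near-identical actins was not checked.

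All probe sets were fitted with limma 3.58.1 in R 4.3.3, VAChT KDHOM minus WT, and p-values were adjusted over all of them by Benjamini-Hochberg. Ratios were tested by exact two-sided permutation over arrays. A gene with several probe sets was read from the brightest. Named were all 10 genes, the 3 genes most like each of the 10, and Slc18a3 and Ogdhl. From the 10 gene lists, up to 4 genes with the smallest p were named. Bmp10, Xirp1, Ankrd1 and Fhl1 were named besides, as markers whose values are needed beside a result. The members and lists were chosen with earlier results of these data known. No source says that the pools came from separate animals, so p-values measure the spread between arrays, whose number limits the precision. Pairs of arrays correlated at 0.982 to 0.994. The procedure was tested on simulated data.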

Additional observations from a re-analysis of the deposited data

How the results depend on the processing

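Alternatives were a further quantile normalization, median centring, each array left out in turn, both arrays numbered 2 left out, the replicate number as a block, a filter on dim probe sets, other eBayes settings, array weights and the methods' ANOVA, whose thresholds 1.65% of all probe sets passed; quantile normalization combined with leaving out the arrays numbered 2 or VAChT KDHOM 1 was added after seeing the data. The count of genes at an adjusted p of 0.05 was 0 of 10 under each of these that was run. At the methods' thresholds it was 0, except 1 without VAChT KDHOM 1 (Acta2). Every gene has 1 probe set, so averaging probe sets changed nothing.

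Quantile normalization turned the differences of Actc1 to 0.016 and Tnni3 to 0.018, and the ratios Tnni1/Tnni3 to -0.075 and Tnnt1/Tnnt2 to -0.024. Combined with leaving out both arrays numbered 2 it gave 0.029 for Actc1, 0.0074 for Tnnt2, 0.014 for Tnnt1, 0.017 for Tnni3, 0.017 for Tpm1 and -0.096 for Tnni1/Tnni3, and combined with leaving out VAChT KDHOM 1 it gave -0.090 for Tnni1/Tnni3 and -0.034 for Tnnt1/Tnnt2. Tnnt1 turned to 0.034 with median centring and 0.020 without both arrays numbered 2. The cause of these turns was not tested.

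With 1 array left out, differences ran from -0.47 to 0.057 for Actc1, 0.04 to 0.41 for Acta1, 0.13 to 0.39 for Acta2, -0.47 to 0.018 for Tnnt2, -0.079 to 0.0017 for Tnnt1, -0.43 to 0.067 for Tnni3, -0.19 (without WT 3) to -0.055 (without VAChT KDHOM 3) for Tnni1, -0.24 to -0.01 for Tnnc1, -0.19 to 0.064 for Tpm1 and 0.0057 to 0.11 for Tpm2. Ratios ran from 0.31 to 0.73 for Acta1/Actc1, 0.33 to 0.76 for Acta2/Actc1, -0.21 to 0.37 for Tnni1/Tnni3, -0.070 to 0.46 for Tnnt1/Tnnt2 and -0.058 to 0.27 for Tpm2/Tpm1.

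Same-numbered arrays share only a number: their deviations from the group means correlated at 0.057, -0.125 and 0.133. With the replicate number as a block, the count at the methods' thresholds was 0 and no difference passed an adjusted p of 0.05 in limma; Acta2 (0.27) had an adjusted p of 0.413, and over its alternatives that p ran from 0.413 to 0.846. Acta1 (0.23) had an unadjusted p of 0.0453 and an adjusted p of 0.393 in the limma block fit. The share of all probe sets below an unadjusted p of 0.05 is not given for that fit.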
